A study of Mus musculus with 6 samples.

Results

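Platelet and megakaryocyte transcripts were examined in sorted blood stem cells through 9 genes, chosen by symbol: Vwf, Mmrn1, Itga2b, Itgb3, Gp1bb, Gp9, Pf4, Trpc6 and Plek. All 9 had a row among the 26776 genes of the table, and all 9 passed the filter on low counts, as did 18081 genes in all. The cells were long-term haematopoietic stem cells (LT-HSCs) sorted out of bone marrow. The mice were Trim47+/eGFP, a genotype that, by its name, pairs a wild-type allele of the ubiquitin ligase gene Trim47 with an allele carrying a green fluorescent reporter. Both groups carried this genotype and no treatment beyond the sort is named. The eGFPlo group (n = 3 libraries) held LT-HSCs sorted for low and the eGFPhi group (n = 3 libraries) LT-HSCs sorted for high reporter fluorescence. The age and number of the mice and the surface gate stand in none of the sources used here. Nor do these say that replicates were different mice, so a p-value reflects library-to-library spread, which may be technical.

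Megakaryocytes are the large marrow cells that shed platelets, and some HSCs lie close to this lineage and transcribe its genes before they divide. Platelets attach to a damaged vessel wall when von Willebrand factor, a long multimeric ligand, is caught by the glycoprotein Ib-IX-V receptor. They then aggregate through integrin alpha IIb beta 3, and release alpha granules filled with chemokines and adhesive proteins. Vwf expression is widely used to mark platelet-biased HSCs, and Itga2b protein (CD41) is carried by megakaryocytes and by part of the HSC pool.

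The libraries held 11221070 to 26058391 counts. Levels are CPM, that is counts scaled to library size, with TMM factors that place the bulk of genes near no change, and are given as mean ± SD over n = 3. Fold changes are eGFPhi over eGFPlo, each with a standard error (SE) of its log2 value and a Benjamini-Hochberg adjusted p from edgeR quasi-likelihood tests over all 18081 genes, called under 0.05. The reporter gene's own transcript, Trim47, stood at 7.28, 8.18 and 8.92 CPM in the eGFPlo libraries and at 21.6, 26.2 and 23.3 CPM in the eGFPhi libraries, in the order that the sort labels give. In a bulk library, fewer cells of a type and less RNA per cell cannot be told apart, and this holds for each result here.

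The 9 genes were mostly higher in eGFPhi: 8 rose and 1, Plek, fell. Both groups differed over much of the transcriptome, with 64.0% of tested genes called, 32.3% as higher and 31.7% as lower, so a call alone is common in these data. The rises ran from 1.18-fold for Itga2b to 11.4-fold for Vwf. The median log2 fold change of the 9 genes was 1.55, against 0.00346 over all tested genes. Since the 9 genes were chosen with earlier results of these data known, this median describes them and does not test a shift of the set. For each of the 9 genes the 3 libraries of one sort lay entirely on one side of the other 3; 8 lay above and 1 below. Groups that do not overlap were found for 69.8% of tested genes, 35.2% with eGFPhi above and 34.6% with it below. The smallest rise, of Itga2b, fell short of the threshold when a biological coefficient of variation of 0.2 was assumed (adjusted p = 0.481), while each of the other 8 genes stayed past it.

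**Figure D1:**
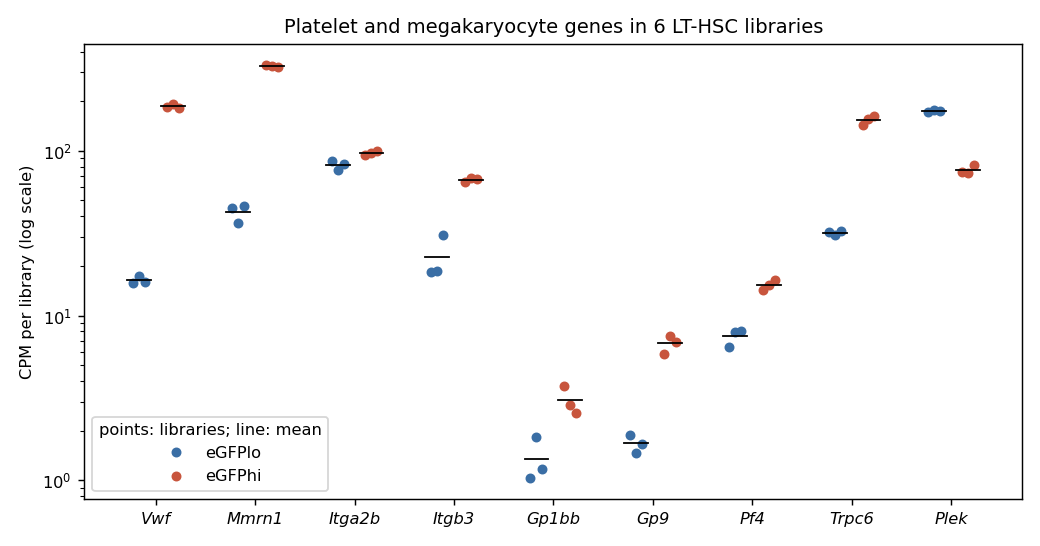
Levels of the 9 genes in CPM (log axis) in each of the 3 eGFPlo (blue) and 3 eGFPhi (red) libraries, with the group mean as a line. The groups do not overlap for any gene, Plek runs opposite to the rest, and the eGFPlo value of Itgb3 in replicate 3 stands above the other 2.

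**Figure D2:**
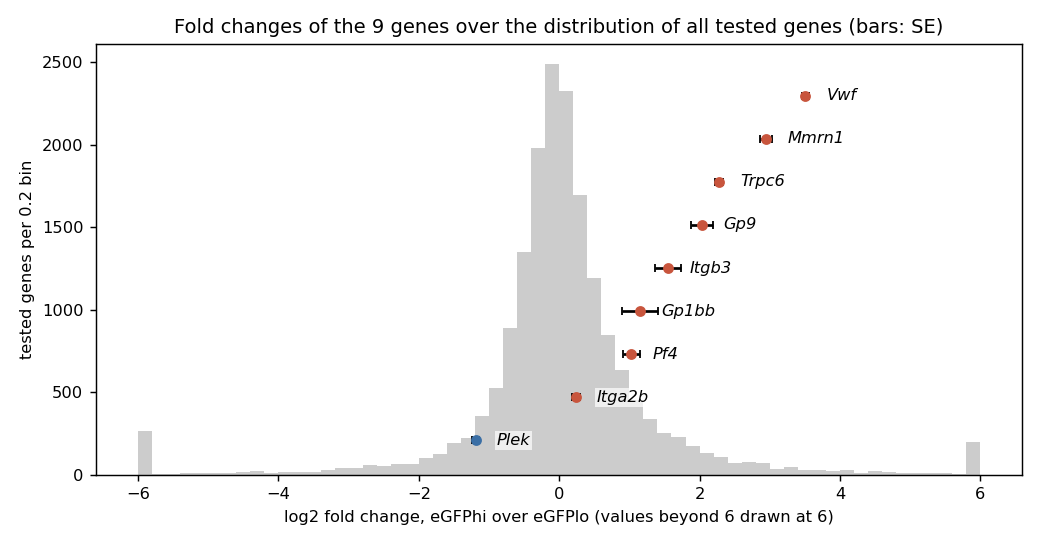
Log2 fold change, eGFPhi over eGFPlo, of the 9 genes (points, with SE bars) over a histogram of all 18081 tested genes (vertical axis: genes per bin; the vertical place of a point carries no value). Vwf at 3.51 and Mmrn1 at 2.95 lie in the upper tail, while Itga2b at 0.24 lies within the central peak.

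Vwf and Mmrn1, which encode very large multimeric proteins stored in platelet granules, showed the largest rises. Vwf (ENSMUSG00000001930, GRCm38 chromosome 6, 125546774 to 125686679, plus strand) stood at 15.8, 17.5 and 16.0 CPM in the eGFPlo libraries and at 186, 192 and 183 CPM in the eGFPhi libraries. Every eGFPhi library was thus far above every eGFPlo library, and the spread within a sort was small beside the gap. The rise was 11.4-fold (log2 fold change 3.51, SE 0.05, adjusted p = 7.07e-09) and ranked 393 among all rises.

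Mmrn1 (ENSMUSG00000054641, chromosome 6, 60924976 to 60989378, plus strand) encodes multimerin 1, a carrier of coagulation factor V in alpha granules. It stood at 44.8, 36.4 and 46.5 CPM in eGFPlo and at 334, 329 and 325 CPM in eGFPhi. The eGFPlo libraries varied more, replicate 2 being the lowest, and the eGFPhi libraries were close to each other. The rise was 7.72-fold (log2 fold change 2.95, SE 0.08, adjusted p = 1.95e-07). The ratio of Mmrn1 to Vwf counts, which no scaling of libraries can change, was 2.83, 2.08 and 2.90 in eGFPlo and 1.797, 1.71 and 1.77 in eGFPhi. It was therefore lower in all 3 eGFPhi libraries, with a difference of -0.55 on the log2 scale (exact two-sided permutation test, p = 0.1, the smallest that 3 against 3 allow; 0.15 adjusted over the 3 gene pairs compared).

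The receptor that binds von Willebrand factor is built from the products of Gp1ba, Gp1bb, Gp9 and Gp5, of which Gp1bb and Gp9 are members of the set. Gp9 (ENSMUSG00000030054, chromosome 6, 87778072 to 87779768, plus strand), encoding the small glycoprotein IX subunit needed to bring the receptor to the surface, stood at 1.88, 1.47 and 1.66 CPM in eGFPlo and at 5.87, 7.49 and 6.94 CPM in eGFPhi. These are 21 to 30 counts per eGFPlo library and 66 to 195 per eGFPhi library, so the level is low but the sorts are well apart. Gp9 rose 4.10-fold (log2 fold change 2.03, SE 0.16, adjusted p = 2.91e-05).

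Gp1bb (ENSMUSG00000050761, chromosome 16, 18620317 to 18622403, minus strand), the disulfide-linked beta chain of glycoprotein Ib, was the least abundant member. It stood at 1.03, 1.82 and 1.16 CPM in eGFPlo and at 3.74, 2.84 and 2.57 CPM in eGFPhi, from only 12 to 26 and 42 to 74 counts per library. The groups did not overlap, and the rise was 2.23-fold with a wide error (log2 fold change 1.15, SE 0.26, adjusted p = 0.00538). Of its merged exon bases, 91.1% also belong to exons of Septin5 on the same strand, and the sources used here do not say how shared reads were counted, so its counts are uncertain. Septin5, the gene of a septin, a filament-forming GTPase, went the other way. It stood at 6.17, 3.42 and 6.26 CPM in eGFPlo and at 1.25, 1.61 and 1.13 CPM in eGFPhi, a 3.88-fold lower level (log2 fold change -1.96, SE 0.28, adjusted p = 6.05e-04). A further overlapping model, Gm49601, stood at 0.795 ± 0.160 against 1.84 ± 0.721 CPM.

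The partner chains that are not members rose as well. Gp1ba, the chain that carries the von Willebrand factor binding site, rose 2.67-fold from 3.48 ± 1.11 to 9.27 ± 0.412 CPM (adjusted p = 5.34e-04). Gp5, the other partner chain, rose 1.68-fold from 4.61 ± 0.421 to 7.81 ± 0.756 CPM (adjusted p = 0.00147). The 4 genes of the receptor were thus each called higher, as were 32.3% of all tested genes. Of these 4, Gp1bb has uncertain counts because of its overlap with Septin5. The ratio of Gp9 to Gp1bb counts was 1.83, 0.808 and 1.43 in eGFPlo and 1.57, 2.64 and 2.70 in eGFPhi, so the sorts overlapped (difference 0.80 on the log2 scale, exact two-sided permutation test, p = 0.2).

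Integrin alpha IIb beta 3, the fibrinogen receptor of platelets, is a heterodimer, and its chains moved unequally. Itga2b (ENSMUSG00000034664, chromosome 11, 102453297 to 102470122, minus strand), the alpha chain, stood at 87.4, 76.2 and 83.4 CPM in eGFPlo and at 94.0, 96.7 and 100.3 CPM in eGFPhi. The gap between the highest eGFPlo and the lowest eGFPhi library was narrow. The rise was 1.18-fold (log2 fold change 0.24, SE 0.05, adjusted p = 0.00640).

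Itgb3 (ENSMUSG00000020689, chromosome 11, 104608000 to 104670476, plus strand), the beta chain, which also pairs with the alpha V chain, stood at 18.4, 18.6 and 30.7 CPM in eGFPlo and at 64.9, 68.0 and 67.9 CPM in eGFPhi. Replicate 3 of eGFPlo was higher than the other 2 but still below every eGFPhi library. The rise was 2.93-fold (log2 fold change 1.55, SE 0.18, adjusted p = 2.10e-04). Without eGFPlo replicate 3 the log2 fold change was 1.85. Counts of Itgb3 per count of Itga2b were 0.211, 0.244 and 0.369 in eGFPlo and 0.690, 0.703 and 0.677 in eGFPhi. The ratio was higher in all 3 eGFPhi libraries, by 1.37 on the log2 scale (exact two-sided permutation test, p = 0.1, the smallest possible here; adjusted 0.15).

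Pf4 (ENSMUSG00000029373, chromosome 5, 90772435 to 90773383, plus strand) encodes platelet factor 4, the chemokine CXCL4, an alpha granule protein that megakaryocytes also release in the marrow. It stood at 6.43, 7.90 and 8.08 CPM in eGFPlo and at 14.2, 15.3 and 16.3 CPM in eGFPhi. All eGFPhi libraries were above all eGFPlo libraries, and the rise was 2.04-fold (log2 fold change 1.03, SE 0.11, adjusted p = 1.62e-04).

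Its adjacent gene ran the other way. Ppbp (ENSMUSG00000029372, chromosome 5, 90768518 to 90770063, plus strand), the gene of pro-platelet basic protein, the related chemokine CXCL7 of the same granules, ends 2371 bases before Pf4 begins, with no annotated gene between them. It stood at 5.40, 5.66 and 5.37 CPM in eGFPlo, from 63, 81 and 97 counts. In eGFPhi it had 5 counts, all in replicate 2, and none in replicates 1 and 3. The fitted decrease was 58.1-fold (log2 fold change -5.86, SE 0.48, adjusted p = 3.22e-05) and rests on replicate 2. Against the 2 other eGFPhi libraries alone Ppbp was at least 56.0-fold lower, taking 3 counts over both as the floor. Over all eGFPhi libraries the pooled counts gave a 62.1-fold lower level. Its 95% limits from counting error alone were 26.2 and 193.

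**Figure D3:**
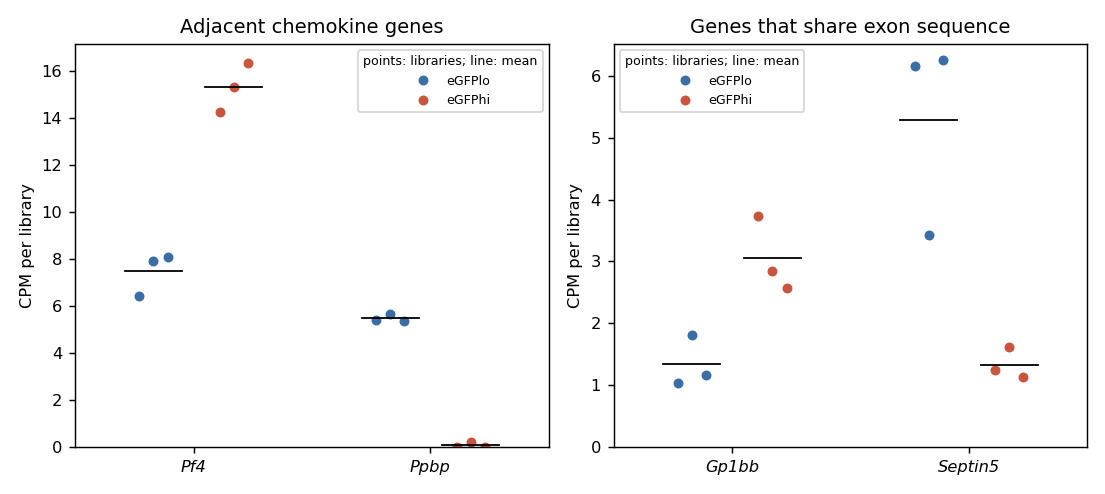
Levels in CPM per library (points) with group means (lines) for Pf4 and its neighbour Ppbp (left) and for Gp1bb and Septin5, which share exon sequence (right). In each pair the first gene is higher and the second lower in the 3 eGFPhi libraries (red).

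Trpc6 (ENSMUSG00000031997, chromosome 9, 8544142 to 8680741, plus strand) encodes a cation channel opened by diacylglycerol that admits calcium in platelets and smooth muscle. It stood at 32.1, 30.8 and 32.7 CPM in eGFPlo and at 144, 156 and 163 CPM in eGFPhi, with no library near the other sort. The rise was 4.84-fold (log2 fold change 2.28, SE 0.06, adjusted p = 1.22e-07).

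Plek (ENSMUSG00000020120, chromosome 11, 16971206 to 17052381, minus strand) encodes pleckstrin, the main substrate of protein kinase C in platelets, which is also found in granulocytes, monocytes and lymphocytes. It stood at 173, 177 and 174 CPM in eGFPlo and at 74.3, 73.1 and 82.2 CPM in eGFPhi. It was the only one of the 9 genes with all eGFPhi libraries below all eGFPlo libraries, and it was 2.28-fold lower (log2 fold change -1.19, SE 0.05, adjusted p = 9.40e-07). On the opposite strand 4.44% of its merged exon bases overlap Cnrip1, whose own level did not pass the threshold (17.2 ± 1.56 against 15.4 ± 1.39 CPM, adjusted p = 0.199). Granulocyte-monocyte progenitor markers moved with Plek: all 8 measured were lower, with a summed level of 6276 to 6390 CPM in eGFPlo and 860 to 1077 CPM in eGFPhi. Most of the eGFPhi sum came from 1 listed gene, Calr, at 565, 573 and 783 CPM. Calr was only 1.61-fold lower, while the other markers of this list were 4.15-fold (Prtn3) to 27.9-fold (Ms4a3) lower. Monocyte and macrophage markers were lower for 5 of 8 with a row, at 99.9 to 103.1 and 27.3 to 29.2 summed CPM, with none at 0 in all eGFPhi libraries. Their part in the fall of Plek was not tested.

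Promoters were read because 8 of these genes moved in one direction and their lineage is directed by GATA, ETS, RUNX, MEIS and NF-E2 factors. RefSeq promoters (build GRCm38.p6, 250 bases before to 50 after the start) were matched for 7 of the 9 genes: Gp1bb, Gp9, Itga2b, Mmrn1, Pf4, Plek and Trpc6. The core GATAA, searched on both strands, was present in 4 of the 7, which were Gp9, Mmrn1, Pf4 and Plek, and in 25.4% of all 32851 promoters of the table. The 3 promoters that hold it before the start are shown for the 250 bases up to the start, 5′ to 3′ on the strand of the gene, with every match to a searched motif in capitals. They lie at chr6:87777820-87778069 for Gp9 (plus strand), chr6:60944067-60944316 for Mmrn1 (plus strand) and chr11:17008719-17008968 for Plek (minus strand). The Mmrn1 and Plek stretches lie inside the longer gene spans of the table, since RefSeq starts these genes further downstream.
Gp9: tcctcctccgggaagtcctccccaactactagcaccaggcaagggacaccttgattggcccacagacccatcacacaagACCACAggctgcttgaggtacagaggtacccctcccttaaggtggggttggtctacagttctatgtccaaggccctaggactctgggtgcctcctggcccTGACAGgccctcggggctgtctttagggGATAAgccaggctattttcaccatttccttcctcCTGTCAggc
Mmrn1: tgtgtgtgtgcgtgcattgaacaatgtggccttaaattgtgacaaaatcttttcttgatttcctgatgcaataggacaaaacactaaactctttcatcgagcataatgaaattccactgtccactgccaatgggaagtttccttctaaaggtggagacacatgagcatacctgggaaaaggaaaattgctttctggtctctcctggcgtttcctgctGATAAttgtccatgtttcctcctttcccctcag
Plek: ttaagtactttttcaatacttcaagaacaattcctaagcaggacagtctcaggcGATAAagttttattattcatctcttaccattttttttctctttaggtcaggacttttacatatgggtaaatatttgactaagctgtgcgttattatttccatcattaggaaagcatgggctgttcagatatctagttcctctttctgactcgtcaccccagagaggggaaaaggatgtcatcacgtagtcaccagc
Relative to the start, GATAA began at position -43 in Gp9, -33 in Mmrn1 and -196 in Plek, and in Pf4 it lay in the transcribed part. It was thus present in 3 genes that rose and in the gene that fell. TGACAG (MEIS) was found in Gp9 and Itga2b and in 19.2% of all promoters, and TGTGGT (RUNX) in Gp9 and in 16.8%, as ACCACA on the strand shown. CAGGAAG and CCGGAAG (ETS), held by 13.3% and 8.86% of all promoters, and the NF-E2 motif, held by 0.155%, were in none of the 7. These matches describe letters in a window and are not evidence of binding.

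Levels were compared between genes per length, as CPM per kilobase of merged exons. In eGFPlo the order was Plek (38.9 ± 0.535), Itga2b (15.1 ± 1.04), Pf4 (10.4 ± 1.26), Mmrn1 (7.25 ± 0.918), Trpc6 (6.29 ± 0.195), Itgb3 (3.83 ± 1.20), Gp9 (1.90 ± 0.237), Vwf (1.02 ± 0.0558) and Gp1bb (0.640 ± 0.202). Among neighbours in that order the libraries overlapped for Mmrn1 and Trpc6. In eGFPhi the order was Mmrn1 (56.1 ± 0.789), Trpc6 (30.4 ± 1.94), Pf4 (21.2 ± 1.45), Itga2b (17.8 ± 0.579), Plek (17.1 ± 1.10), Vwf (11.6 ± 0.294), Itgb3 (11.3 ± 0.299), Gp9 (7.68 ± 0.933) and Gp1bb (1.46 ± 0.293). There the libraries of Itga2b and Plek overlapped, as did those of Vwf and Itgb3. Plek went from the first to the fifth place and Mmrn1 from the fourth to the first, while Gp1bb was last in both sorts.

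**Figure D4:**
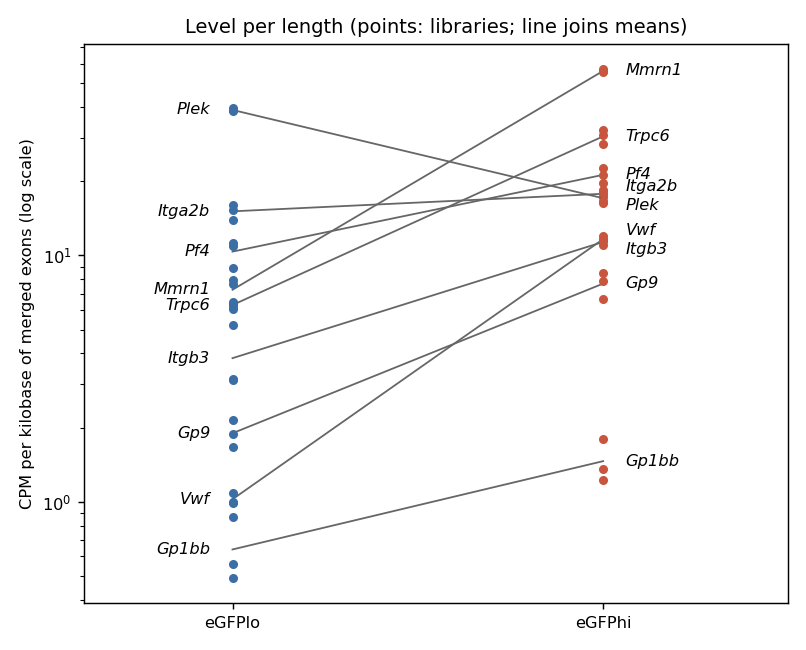
Level of each of the 9 genes in CPM per kilobase of merged exons (log axis) in eGFPlo and eGFPhi, with libraries as points and lines joining the group means. Plek heads the order in eGFPlo at 38.9 and Mmrn1 in eGFPhi at 56.1, and the line of Vwf is the steepest.

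Other genes of the megakaryocyte and platelet programme moved less uniformly. Of 131 genes in 11 lists by role, 116 were tested; 58 were higher, 33 lower and 25 did not pass, against background shares of 32.3% higher and 31.7% lower, and their log2 fold changes had a median of 0.17. Of 15 transcription factors 11 were higher and 2 lower, with a median log2 fold change of 0.37. Gata2, a factor of stem cells and early megakaryocytes, rose 3.18-fold from 113 ± 5.44 to 360 ± 7.92 CPM, Tal1 rose 2.98-fold from 52.1 ± 0.640 to 155 ± 8.55 CPM, and the homeobox gene Meis1 rose 1.99-fold. The 2 that fell, named after their values were seen, were the serum response factor gene Srf and Gata1, the master factor of erythroid and megakaryocyte maturation. Gata1 stood at 14.9, 15.7 and 14.6 CPM in eGFPlo and at 8.72, 10.6 and 8.94 CPM in eGFPhi (log2 fold change -0.67, adjusted p = 9.03e-04). Erythroid markers moved with it: of 11 measured, 9 were lower and none higher, at 120 to 142 and 49.8 to 60.2 summed CPM, and their part in the fall of Gata1 was not tested.

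Of 7 tested genes of thrombopoietin signalling, the cytokine pathway that drives megakaryocytes and maintains HSCs, 5 were higher and none lower. The kinase gene Jak2 rose 1.30-fold and Stat3, the gene of a transcription factor that such kinases activate, rose 1.23-fold. Of 12 adhesion receptors and integrin regulators 9 were higher and 2 lower, the falls being 1.17-fold and 1.98-fold. Jam3, a junctional adhesion molecule, rose 14.1-fold from 1.02 ± 0.335 to 14.3 ± 2.15 CPM, Esam, which marks endothelium, platelets and HSCs, rose 3.61-fold from 11.9 ± 0.599 to 43.1 ± 2.49 CPM, and the laminin receptor chain Itga6 rose 1.83-fold. Of 14 platelet signalling enzymes 9 were higher and 2 lower, the falls being 1.28-fold and 3.51-fold. Tbxas1 and Ptgs1, the thromboxane synthase and cyclooxygenase-1 genes that act in sequence to make thromboxane A2, rose 3.53-fold (79.5 ± 2.42 to 281 ± 2.25 CPM) and 2.15-fold (49.5 ± 0.901 to 106 ± 3.15 CPM), and Rgs18, a brake on G protein signalling, rose 1.78-fold.

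Of 13 tested alpha granule cargo genes 7 were higher and 4 lower. The growth factor gene Pdgfb rose 9.39-fold from 0.723 ± 0.258 to 7.02 ± 0.751 CPM and the thrombospondin gene Thbs1 1.40-fold, while Tgfb1 was 1.42-fold lower. That was the smallest of the 4 falls. The others were 2.16-fold, 2.58-fold and, for Ppbp, 58.1-fold. Of 10 tested agonist receptors 4 were higher and 1 lower. The serotonin receptor gene Htr2a rose 5.99-fold from 4.30 ± 0.876 to 25.8 ± 0.959 CPM. F2r, the gene of a thrombin receptor, rose 1.75-fold from 73.2 ± 1.69 to 128 ± 1.68 CPM. Its relatives F2rl2 and F2rl3 in this list were not called (log2 fold change 0.23 and 0.08, adjusted p = 0.379 and 0.456). Both relatives were picked for mention once their results were known. Ptgir, the receptor for prostacyclin, which restrains platelets, stood at 1.67 ± 0.184 CPM in eGFPlo and had no count in eGFPhi, which makes it at least 31.8-fold lower against 3 counts over that group.

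Collagen and podoplanin receptor signalling showed 2 higher and 3 lower of 7 tested genes. The adaptor gene Lcp2 rose 1.56-fold, and the kinase genes Syk and Btk were 1.46-fold and 1.19-fold lower. Of 18 granule biogenesis genes 6 were higher and 8 lower. Rab27b, a GTPase of platelet granule release, rose 3.17-fold from 10.3 ± 1.16 to 32.7 ± 4.53 CPM, Nbeal2, which is needed to form alpha granules, rose 1.30-fold, and Lyst was 1.36-fold lower. Of 9 tested cytoskeletal genes 2 were higher and 5 lower. The tropomyosin gene Tpm4 was 5.22-fold lower (66.1 ± 1.93 against 12.6 ± 0.802 CPM) and the myosin gene Myh9 1.13-fold lower. Dnm3, a dynamin of megakaryocyte membranes, rose 62.3-fold from 0.140 ± 0.122 to 9.05 ± 1.51 CPM; it had only 6 counts over the eGFPlo libraries, and the rise was 120-fold without eGFPlo replicate 2.

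Of 12 tested paralogues of the members 3 were higher and 7 lower. The multimerin relative Emilin2 was 2.22-fold lower and the integrin chain Itga4 1.43-fold lower, and Ppbp, described above, is also in this list. Among those that rose, and named after their values were seen, were Trpc1, a channel related to Trpc6, at 4.38-fold (0.727 ± 0.278 to 3.26 ± 0.441 CPM), and Itgav, the other alpha partner of Itgb3, at 1.56-fold. Of the programme genes named here, Srf, Pecam1, Jak2, Stat3, Syk, Btk, Tgfb1, Thbs1, Lyst, Nbeal2, Myh9 and Itga4 lost their call when a coefficient of variation of 0.2 was assumed.

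**Figure D5:**
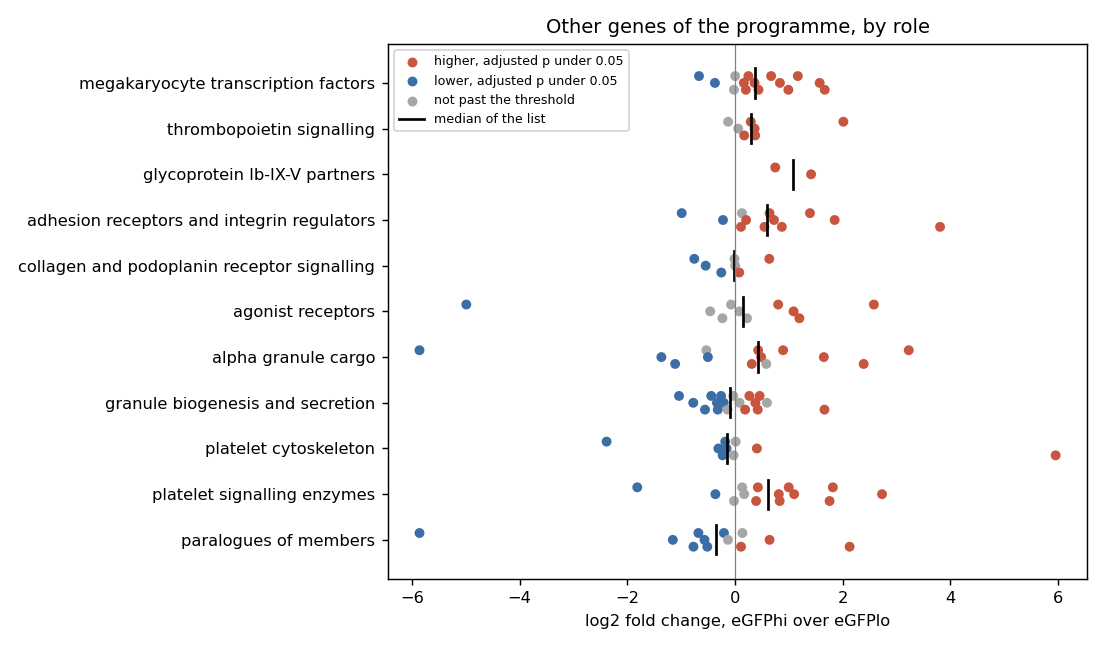
Log2 fold change, eGFPhi over eGFPlo, of each tested programme gene in 11 lists by role, coloured by call, with the median of each list as a bar; Ptgir is drawn at its bound. Transcription factors, thrombopoietin signalling, receptor partners, adhesion genes and signalling enzymes lie mainly to the right of 0, granule biogenesis, cytoskeleton and paralogues do not.

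Markers of mature megakaryocytes and platelets differed widely in level. P2rx1 was the most abundant, at 16.3 ± 2.83 CPM in eGFPlo and 34.7 ± 0.494 CPM in eGFPhi, and Gp6 the least. Of 9 with a row, 8 were tested; 4 were higher, 1 lower and 3 did not pass, and their summed level was 33.4 to 39.9 CPM in eGFPlo and 59.2 to 59.6 CPM in eGFPhi. Tubb1, the platelet-specific tubulin, stayed between 0.599 and 1.27 CPM in all 6 libraries (log2 fold change -0.02, adjusted p = 0.959). Gp6, the platelet collagen receptor, stood at 0.600, 0.419 and 0.554 CPM in eGFPlo and had no count in eGFPhi. Too few counts kept Gp6 out of the test. Those that rose were Treml1 (3.39-fold), Gp1ba, P2rx1 (2.13-fold) and Gp5, the one that fell was Ppbp, and Tubb1, Clec1b and F2rl2 did not pass. The part of mature megakaryocyte transcripts in the rises of the 8 genes was not tested.

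Endothelial cells also transcribe Vwf and Mmrn1. Of 9 tested endothelial markers 6 were higher and 2 lower, and the summed level of the 10 with a row was 152 to 163 CPM in eGFPlo and 256 to 258 CPM in eGFPhi. Cdh5, the gene of the endothelial cadherin, had no count in any eGFPhi library and stood at 0, 0 and 0.443 CPM in eGFPlo. Kdr, a receptor for vascular endothelial growth factor, rose 18.5-fold from 0.303 ± 0.115 to 5.97 ± 0.137 CPM, and Cldn5, a tight junction gene, had 1 count in eGFPlo and 95 in eGFPhi. Of the more abundant markers, Tie1 rose 2.64-fold from 52.1 ± 2.60 to 137 ± 2.74 CPM and Emcn rose 2.43-fold from 9.43 ± 1.29 to 22.9 ± 1.13 CPM. Pecam1 fell from 68.5 ± 4.24 to 58.8 ± 1.74 CPM, and Egfl7 did not pass (24.5 ± 1.82 against 24.9 ± 1.23 CPM, adjusted p = 0.766). The other marker that fell was Plvap, 1.95-fold lower (3.60 ± 0.774 against 1.85 ± 0.106 CPM). The part of endothelial transcripts in the rises of Vwf and Mmrn1 was not tested.

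HSC markers were present in both sorts and moved in the direction of the members that rose, opposite to Plek. Of 13 markers 12 were higher and none lower, their median log2 fold change was 1.91, and they summed to 1434 to 1476 CPM in eGFPlo and 3096 to 3321 CPM in eGFPhi. The log2 fold changes of Vwf, Mmrn1, Trpc6 and Gp9 exceeded that median and those of Itgb3, Gp1bb, Pf4 and Itga2b did not; these differences were not tested. B cell markers, all 10 lower, summed to 3485 to 3570 CPM in eGFPlo and 404 to 416 CPM in eGFPhi, where Igll1 had no count. Mast cell and basophil markers, 5 of 6 with a row being lower, summed to 28.8 to 40.9 and 11.6 to 12.6 CPM, with Cma1 at 0 in eGFPhi. T and NK cell markers, 4 lower and 1 higher of 6 tested, summed to 67.0 to 69.9 and 15.04 to 17.6 CPM, with 5 of the 10 at 0 in eGFPhi. The part of these marker differences in the fold changes of the members was not tested.

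Genes with the most similar profile were sought for each member among 12542 genes, by the root mean square difference of mean-centred log2 CPM over the 6 libraries; with 2 groups this mainly finds genes of the same fold change. Nearest to Vwf were Insrr (0.0887) and Dlg2 (0.104), and nearest to Mmrn1 were Abca5 (0.0942) and Nrk (0.0970). Prex2 (0.0336) and Fgd5 (0.0608), an established HSC marker, were nearest to Trpc6. Klhl4 (0.0889) and Slc22a17 (0.0924) were nearest to Gp9, Rprm (0.0904) and Cpeb2 (0.0981) to Itgb3, and Myh7b (0.0924) and Dennd2c (0.123) to Gp1bb. Pf4 was followed most closely by Rnf180 (0.0431) and Nlrp5-ps (0.0503), and Itga2b by Rps12-ps4 (0.0153) and Rttn (0.0221). Nearest to Plek were the histone gene H4c6 (0.0380) and the cell cycle factor gene E2f8 (0.0381), which fell from 39.99 to 17.0 and from 81.9 to 36.3 CPM.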

How the data were processed

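Poly-A selected RNA from sorted LT-HSCs was sequenced as 6 stranded paired-end libraries, per the labels' protocols. The authors deposited 1 table with 1 count and 1 FPKM value (scaled for length and depth) for every gene in each library, per the file headers. The submitters' processing notes name CASAVA 1.8, HISAT2, StringTie and edgeR and the builds hg38 and GRCm38, without roles; the read counter and its strand setting stand in none of the sources used here. Gene positions of the 9 genes equalled those of GENCODE M21 (GRCm38), which also gave merged exon lengths and overlaps.

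The counts were fitted with edgeR 4.0.16 under R 4.3.3: filterByExpr (minimum count 10, minimum total 15), TMM factors and quasi-likelihood F tests on group alone. The filter kept 99.7 to 99.9% of counts. A floor of 3 counts corresponds to 0.115 to 0.267 CPM per library and covers counting error only. The fit was also run on simulated counts in which only a small part of the genes changed. That run does not check calls in data such as these, where 64.0% of tested genes are called. Named were the 9 genes, up to 3 called genes per list with the smallest p, the 2 nearest profiles per gene, and genes sharing exons with a member. A gene that this rule names is not reported here. Members and lists were chosen with earlier results of these data known. Alternatives used DESeq2 1.42.0, limma 3.58.1, other factors, filters and thresholds, a replicate block and leaving out each library.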

Additional observations from a re-analysis of the deposited data

How the results depend on the processing

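Each of the 9 genes kept its direction under all alternatives in which it was tested. With an assumed coefficient of variation of 0.2, 3637 genes were higher and 2982 lower over all genes, 35 and 14 in the programme lists, and 7 and 1 among the 9 genes. With a minimum fold of 2 these were 1403 and 1106, 15 and 6, and 5 and 1, since Itga2b, Gp1bb and Pf4 (adjusted p = 1, 0.572 and 0.848) no longer passed; that setting tests a larger change by construction. The stricter filter of 5 CPM in 3 libraries left Gp1bb untested. On log2 of FPKM plus 1, which shrinks changes of low genes, the log2 fold change was 2.51 for Vwf and 0.47 for Gp1bb. Leaving out each library kept 8 higher and 1 lower, and gave 57 to 61 higher and 32 to 34 lower programme genes.

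The labels tie replicate numbers to no animal or day. Residuals of libraries with the same number correlated at -0.0133, 0.000555 and -0.0108, and no library correlated best with its own number. The numbers were therefore not taken to pair the samples. With the replicate block 5551 genes were higher and 5414 lower, the 9 genes gave 8 and 1, and the programme lists 60 and 33. For the ratios paired by replicate number the exact sign-flip p was 0.25 for Itgb3 over Itga2b (difference 1.37), 0.5 for Gp9 over Gp1bb (0.80) and 0.25 for Mmrn1 over Vwf (-0.55); 0.25 is the smallest that 3 pairs allow.

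The log2 fold change of Tubb1, which passed in no setting, ran from -0.45 to 0.17 when 1 library was left out. Depth limits Gp1bb and Gp9 most, with 12 to 26 and 21 to 30 counts per eGFPlo library.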
